A study of Mus musculus with 6 samples.

Results

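H19 is an imprinted long non-coding RNA, and Mir675 is the gene of a microRNA whose precursor lies inside the H19 transcript. Both were taken by name from the authors' deposited table of 690 genes that differed between IL-22-treated and untreated mouse enteroids, so 2 of its 690 entries are described. They were chosen by their group means and read numbers in that same contrast. The table writes H19 in its gene column (Entrez 14955, chromosome 7), whereas the Mir675 entry carries no symbol there and was matched by its Entrez identifier 735280 and its title. The 2 entries are identical in every value, and no other entries of the 690 share all of their means, standard errors and read numbers. They were therefore treated as 1 set of reads, called H19 from here on.

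Enteroids are organoids grown from intestinal crypts. Those of this study came from the small intestine of C57BL/6J mice without necrotizing enterocolitis and were kept for 4 days in differentiation medium. The IL-22 group was then given recombinant mouse IL-22 for 24 hours, and comprised 2 wells from 1 mouse. The control group was untreated and comprised 4 wells from 2 mice. By the labels the cytokine was used at 2 ng/ml, whereas the table's own header writes 100 ng beside IL-22. The mice are labelled as 6 weeks old, while the protocol speaks of adults of 8 weeks and newborns of 7 days. Wells from the same mouse are technical replicates by the labels, and it is not stated if mouse 1 is a single animal in both groups. Differences between the groups are thus set against the spread between wells, with 1 treated mouse.

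H19 is transcribed, spliced and polyadenylated like a messenger RNA but is not known to encode a protein. In the mouse it is expressed from the maternal chromosome, while its neighbour Igf2, a fetal growth factor gene, is expressed from the paternal one. The choice is made at a shared control region, where the insulator protein CTCF binds the maternal copy and DNA methylation marks the paternal copy. H19 is abundant in many fetal tissues and falls to low levels in most of them after birth. It has been linked in earlier mouse work to regrowth of the gut epithelium after injury. IL-22 is a cytokine of immune cells that acts on epithelial cells through the transcription factor STAT3.

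The precursor of miR-675 is cut out of the H19 transcript by Drosha and Dicer and gives a mature microRNA from each arm. In GENCODE M21, an annotation of GRCm38, the longest H19 transcript has 2286 bases, and the precursor occupies its bases 997 to 1080, which are 3.67% of its length. The whole precursor was found in 3 of 7 annotated H19 transcripts and in no other annotated gene. The sequences are shown because both entries of the table rest on this overlap. They are those of RefSeq on GRCm38.p6, written 5′ to 3′. In the precursor the mature arms are in capitals, and in the mature microRNAs the seed (bases 2 to 8) is in capitals.
mmu-mir-675 precursor: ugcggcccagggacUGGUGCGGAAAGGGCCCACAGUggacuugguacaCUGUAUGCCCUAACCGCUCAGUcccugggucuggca
mmu-miR-675-5p: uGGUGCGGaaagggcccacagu
mmu-miR-675-3p: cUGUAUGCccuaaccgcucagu
The 2 arms have different seeds, and no other mature microRNA of the RefSeq table shares either one. The libraries were made from RNA purified with oligo-dT beads, per the labels' protocols. Any reads over the precursor are thus reads of the polyadenylated H19 transcript, and mature miR-675 was not measured. Both entries hold the same read numbers, so how many reads fell on the precursor itself is not known.

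H19 was nearly silent in control enteroids and clearly detected with IL-22. The authors' deposited table puts it at 3.49 ± 0.272 RPM (mean ± SEM) with IL-22 and at 0.157 ± 0.0840 RPM in controls. RPM is taken here as the number of a gene's reads for every 1000000 reads of that library. The unit was inferred from the values, and which reads the library total counts is not given. The deposited ratio of IL-22 over control was 22.2, or 4.47 ± 0.78 on the log2 scale (standard error propagated from the deposited SEMs). That error rests on the spread between wells and holds no spread between treated mice. It is approximate, because the control SEM is 53.6% of the control mean. Behind these means stood an average of 109 reads per library with IL-22 and 4 reads per library in controls. H19 was listed because it differed in this contrast, so the difference is a description and no test of it is given. For the same reason the direction is read against the list, in which 38.7% of genes were higher with IL-22.

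The reads of each library were recovered from the deposited means, SEMs and read numbers. Libraries are named by their depth, the fitted read total behind RPM, because the table does not tie them to wells or mice. The deeper IL-22 library, with 32500000 reads, held 122 reads of H19, or 3.76 RPM, with a 95% counting interval of 3.12 to 4.49 RPM. The shallower IL-22 library, with 29900000 reads, held 96 reads, or 3.21 RPM (interval 2.603 to 3.92 RPM). Both IL-22 libraries lay close together, with the higher at 1.17 times the lower.

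The control libraries were spread far wider. The deepest control library, with 36600000 reads, held 1 read of H19, or 0.0273 RPM (interval 0.00069 to 0.152 RPM). The second deepest, with 35200000 reads, held 2 reads, or 0.0567 RPM (interval 0.0069 to 0.205 RPM). The third deepest, with 27400000 reads, held 4 reads, or 0.146 RPM (interval 0.0398 to 0.374 RPM). These 3 control libraries held 1 to 4 reads each, so that a single read weighs heavily on their levels. The shallowest control library, with 22600000 reads, held 9 reads, or 0.397 RPM (interval 0.182 to 0.754 RPM). It supplied 56.25% of all control reads of H19, and its level was 14.5 times that of the deepest. The lower IL-22 library stood at 8.09 times the highest control library. The list was chosen for differences in this contrast, so such a gap is a description. Its share over all listed genes was not counted, and the 5 genes nearest H19, named below, show a gap too. Counting intervals are exact Poisson limits. They take in counting error alone and leave out the spread between wells and mice. Copies made by PCR are no separate molecules, so the counting error itself may be larger than shown.

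**Figure D1:**
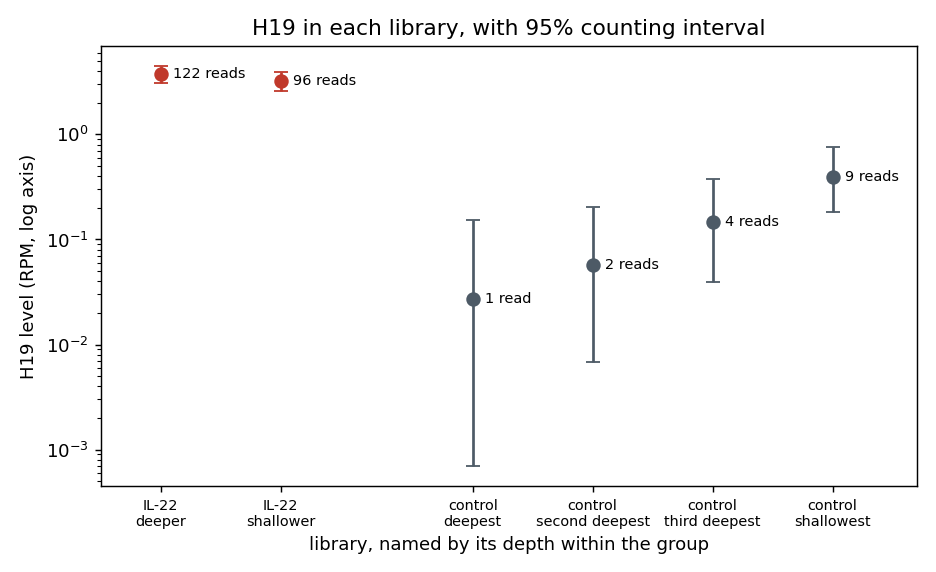
Level of H19 in RPM (log axis) in each library, with the 2 IL-22 libraries left of the 4 control libraries. Points are single libraries, bars are 95% exact Poisson counting intervals, and the number of reads stands beside each point. The IL-22 libraries lie at 3.76 and 3.21 RPM, and the control libraries lie between 0.0273 and 0.397 RPM.

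The size of the ratio depended on the control library with 9 reads. Without it the ratio was 45.5, against 17.4 to 21.7 without each of the other control libraries and 20.5 to 24.0 without either IL-22 library. Summed over libraries, H19 had 218 reads with IL-22 and 16 in controls. Relative to the summed depths this gave a count ratio of 26.6 with a 95% counting interval of 16.04 to 47.4 (exact conditional binomial). The interval takes the libraries of a group to share 1 level. The counting intervals of the deepest and shallowest control libraries, up to 0.152 and from 0.182 RPM, did not overlap, so it is too narrow. The ratio of geometric means over libraries was 35.7 and that of medians 34.4. None of these settings could turn the direction, because both IL-22 libraries lay above all control libraries. The ratio of H19 to its very low control level had no sharp value.

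Among the listed genes H19 had the 18th largest ratio of 266 higher genes, with Mir675 left out as the same reads. It was among the 23 entries, Mir675 included, that were at least 20-fold higher with IL-22, which are 3.33% of the list. The list starts at a ratio of 2.00 for higher genes and at a mean of 20 reads in the higher group, and H19 lay well inside both limits. The level of H19 with IL-22 was moderate, and its level in controls was among the lowest of the list. Per kilobase of exon (2.46 kb for H19 in GENCODE M21), H19 reached 1.42 RPM per kb with IL-22, against a median of 2.73 RPM per kb for the 255 higher genes with a known exon length. By this measure it ranked at position 157 from the top. In controls H19 stood at 0.0638 RPM per kb, against a median of 0.750 RPM per kb for the same higher genes. Of the 667 listed genes with a known exon length, 93.4% stood above it. The list's read limit partly sets this share. Genes lower with IL-22 all had a mean of at least 20 control reads, whereas H19 met the limit through its IL-22 reads.

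**Figure D2:**
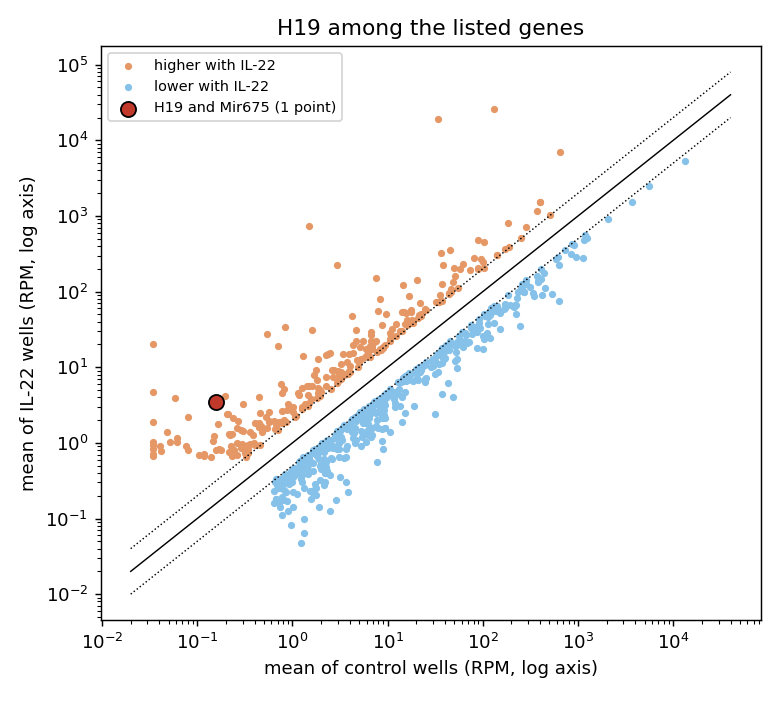
Mean of the IL-22 wells against the mean of the control wells for the 690 listed genes, both in RPM on log axes. The solid line marks equal means and the dotted lines a 2-fold difference. H19 and Mir675 share 1 point at 3.49 RPM with IL-22 and 0.157 RPM in controls, above the line of equal means and near the left edge.

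H19 varied widely between control wells. In the authors' deposited table its control SEM was 53.6% of its mean, the highest of 689 genes with Mir675 left out, where the median was 7.14%. In that table a library with no read carries the value of 1 read, which lowers the SEM of genes with the fewest reads. On the recovered reads themselves, 9 other genes had a larger relative SEM than H19, all with at most 1.5 mean control reads, and 2 genes had no control read at all. Among the 9 were Retnlb, a goblet cell antimicrobial protein gene, at 100% and Duox1, an oxidase that makes hydrogen peroxide, at 58.2% to 64.5%. Few reads widen such a spread, so H19 was also set beside the 28 other genes with 2 to 8 mean control reads. On their reads these had relative SEMs of 5.15% to 43.7%, with a median of 24.3%, and the highest was that of Cpne8. With IL-22, the SEM of H19 was 7.81% of its mean, at position 386 of 689 from the highest, against a median of 9.81%.

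**Figure D3:**
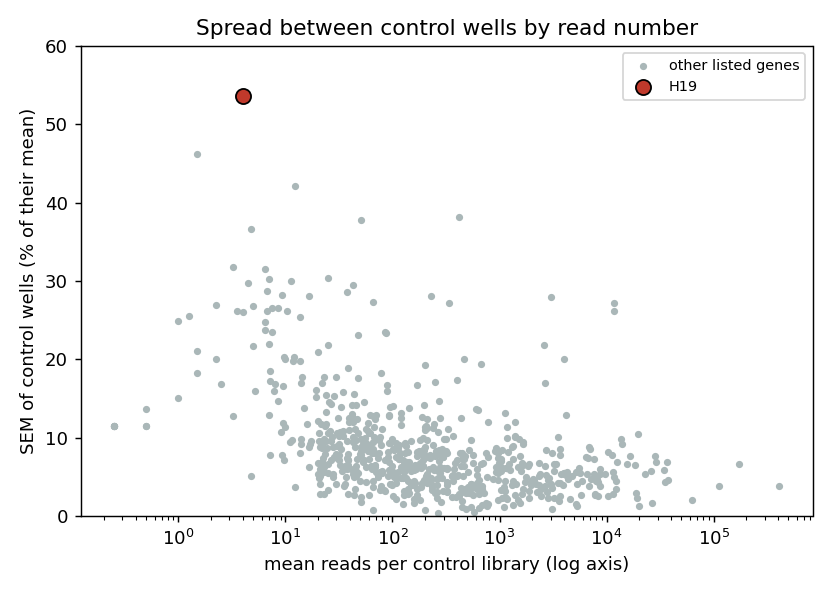
SEM of the control wells as a percentage of their mean, against mean reads per control library (log axis), for listed genes with at least 1 control read and without Mir675. Values are the deposited ones, in which a library with no read carries the value of 1 read and genes with the fewest reads lie too low. H19, with 4 reads per library, lies at 53.6%, and on reads 9 of the genes to its left exceed it.

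The order of the control libraries by H19 was that of their depth, from shallow to deep. The level of H19 was higher in each shallower library than in the next deeper one. Both shallower control libraries together held 13 reads and averaged 0.272 RPM, against 3 reads and 0.0420 RPM in both deeper ones, a ratio of 6.46. Library values could be recovered for 96 other genes with at least 10 summed control reads. Over these genes and H19 the median of the same ratio was 1.00, and the largest besides that of H19 was 3.19, for Zbp1, a sensor of nucleic acids. Of the 97 genes, 5 had a ratio above 2 and 6 a ratio under 0.5. The only other gene whose level was higher in each successively shallower library was Tmem92, which held 22, 26, 22 and 22 reads from the deepest to the shallowest library. The 11 other genes with 10 to 24 summed control reads were compared by the ratio of their highest to their lowest control library. In 2 of them, Cpne8 and Gpr55, a control library had no read, so only a lower bound can be given. With that library set to 1 read, the ratio was at least 7.78 for Cpne8 and at least 5.78 for Gpr55. In the other 9 the highest control library exceeded the lowest by 1.25 to 6.67 times, with a median of 2.48. The same ratio was 14.5 for H19, which cannot be ranked against the 2 genes with lower bounds alone. Whether depth has a part in this order was not tested. The labels put the control wells in 2 mice, but which libraries share a mouse is not known, so a difference between mice and a difference between wells cannot be told apart.

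The listed genes most like H19 were sought as the 5 with the smallest distance in log2 control mean and log2 IL-22 mean, predicted gene models left out. The nearest was Ly6c1, a surface protein of the Ly6 family, at a distance of 0.42 log2 units. In the authors' deposited table Ly6c1 stood at 4.22 ± 0.0333 RPM with IL-22 and at 0.195 ± 0.0616 RPM in controls, a ratio of 21.6. Of its 31-base words, 53.2% are found in no other annotated gene, so its reads may be shared with relatives. Its library values were 4.25 and 4.18 RPM with IL-22, against 0.355, 0.227, 0.109 and 0.0883 RPM in controls from the deepest to the shallowest library. Ly6c1 was thus lowest in the control library in which H19 was highest.

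The other 4 were farther from H19. The long non-coding RNA gene 6530402F18Rik had a distance of 0.67 and a ratio of 11.6, at 2.38 ± 0.334 RPM with IL-22 and 0.204 ± 0.0487 RPM in controls in the authors' deposited table. Ntng2, a netrin-like membrane protein gene, had a distance of 0.69 and a ratio of 11.4, at 2.41 ± 0.365 RPM with IL-22 and 0.212 ± 0.0554 RPM in controls in the authors' deposited table. Thpo, which encodes thrombopoietin, had a distance of 0.92 and a ratio of 9.07, at 2.15 ± 0.0391 RPM with IL-22 and 0.237 ± 0.0439 RPM in controls. Pdgfc, a platelet-derived growth factor gene, had a distance of 0.96 and a ratio of 10.9, at 3.31 ± 0.105 RPM with IL-22 and 0.305 ± 0.0329 RPM in controls. In RefSeq, 6530402F18Rik and Ntng2 overlap by 2984 bases on chromosome 2, and their recovered reads differed by at most 2 in any library, so the reads of both cannot be told apart. Per kilobase of exon, Ly6c1 reached 2.51 RPM per kb with IL-22, above the 1.42 RPM per kb of H19, and the other 4 stood at 0.431 to 0.817 RPM per kb. None of these 4 genes shared the order of H19 over the control libraries. The likeness rests on 2 group means over 6 libraries that also chose the genes, and it carries no test.

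**Figure D4:**
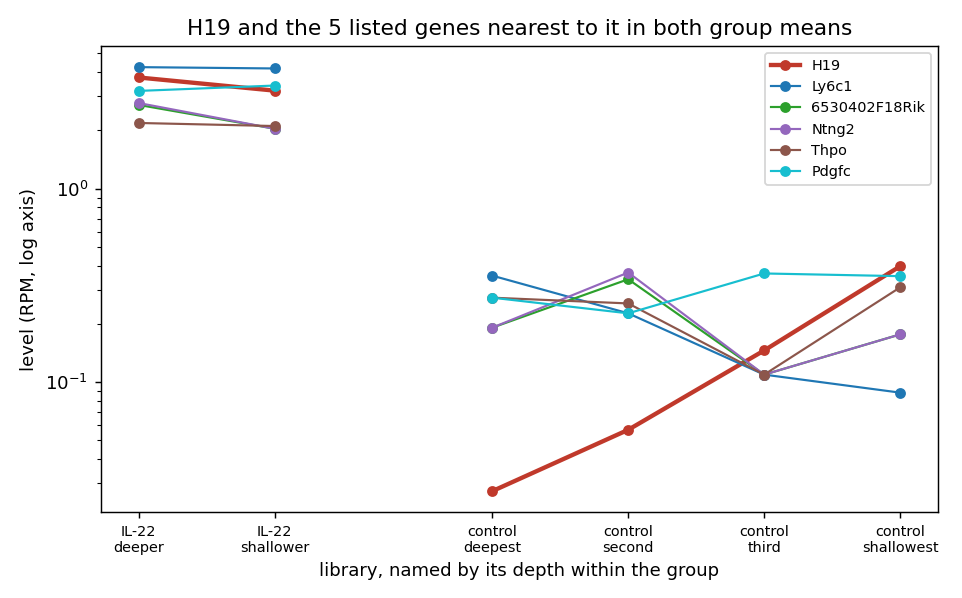
Level in RPM (log axis) of H19 and of the 5 listed genes nearest to it in both group means, in each IL-22 library (left) and each control library (right, from deepest to shallowest). Lines join libraries of 1 group for the eye. The IL-22 values of the 6 genes lie between 2.04 and 4.25 RPM, and the control values of H19 run between 0.0273 and 0.397 RPM. Levels here are not divided by gene length.

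The shares of gene groups that were listed are read against that of all genes. The list holds 1.36% of all RefSeq genes and 2.95% of the protein-coding ones, whether expressed in enteroids or not. RefSeq places 75 other genes within 1 Mb of H19, of which 45 are protein-coding, and 2 of the 75 were listed, both protein-coding. With so few genes this is no result about the region. Syt8, a synaptotagmin gene on one side of H19, was 5.75-fold higher by the authors' deposited table, with 1.27 ± 0.204 RPM with IL-22 and 0.222 ± 0.0287 RPM in controls. Its control reads were few, at 7 per library. Trpm5, a cation channel gene of tuft cells on the other side, was 2.02-fold lower there, at 2.78 ± 0.638 RPM with IL-22 and 5.62 ± 0.1505 RPM in controls. The 2 listed neighbours thus lay in opposite directions. Igf2, Ins2, Cdkn1c, Phlda2 and Kcnq1ot1, imprinted genes of the same region, were not listed, and 22 of the 24 genes of the region's gene list were not. Genes that were not listed were not analysed here, so nothing is shown about whether they changed.

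Of 54 imprinted genes elsewhere in the genome, 2 were listed, which for a list of this size is no result about them. Gatm, an enzyme of creatine synthesis that is imprinted in mouse placenta, was 3.32-fold higher by the authors' deposited table, with 1.86 ± 0.0774 RPM with IL-22 and 0.561 ± 0.158 RPM in controls. Ddc, the aromatic amino acid decarboxylase that is imprinted in mouse heart, was 2.32-fold lower there, at 33.3 ± 0.558 RPM with IL-22 and 77.4 ± 4.13 RPM in controls. Meg3, Dlk1, Peg3, Plagl1 and Igf2r were among the 52 that were not listed. H19 had a larger ratio than the listed genes of this list and of the region's gene list. It was chosen by its means in this same contrast, so this is no result.

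Among the genes that set or read the imprint, and those that process H19 and its microRNA, 1 of each list was found, which for lists of this size is no result about them. Of 24 factors acting at the control region, 1 was listed. This was Tet1, an enzyme that oxidizes methylated cytosine, which was 2.20-fold lower by the authors' deposited table, with 1.29 ± 0.0534 RPM with IL-22 and 2.83 ± 0.0929 RPM in controls. Ctcf, Zfp57, Trim28 and the DNA methyltransferases were not listed. Of 20 RNA-binding and processing partners, 1 was listed. This was Ago4, an Argonaute protein gene, which was 2.15-fold lower there, at 0.904 ± 0.134 RPM with IL-22 and 1.95 ± 0.142 RPM in controls. Drosha, Dicer1 and Elavl1, whose protein HuR binds H19, were not listed.

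Genes reported in mouse or human cells as targets of miR-675 were counted in the same way. Of 19 such genes, 2 were listed, where 2.95% of protein-coding genes were. With so few genes this is no result about these targets. Tgfbi, an extracellular matrix protein gene, was 2.83-fold lower by the authors' deposited table, with 1.54 ± 0.000191 RPM with IL-22 and 4.35 ± 0.299 RPM in controls. Runx1, a transcription factor gene, was 2.17-fold higher there, at 37.9 ± 2.94 RPM with IL-22 and 17.5 ± 0.721 RPM in controls. The junction genes Tjp1 and Cdh1 and the growth factor receptor gene Igf1r were not listed. H19 has also been reported to bind let-7 microRNAs. Of 20 let-7 targets and stem cell growth genes, 1 was listed, which is no result about them either. This was Klf4, a transcription factor gene, which was 2.38-fold higher. It stood at 58.8 ± 7.51 RPM with IL-22 and 24.7 ± 1.99 RPM in controls in the authors' deposited table. The 7 bases CTACCTC that pair with the let-7 seed did not occur on the sense strand of the longest H19 transcript, and 17.5% of 8802 annotated transcripts within 10% of its length hold them. The matches of the seeds of miR-675-5p (CCGCACC) and miR-675-3p (GCATACA) were not found in it either, and 7.26% and 10.1% of those transcripts hold them. Such letters only describe this transcript.

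H19 had the largest ratio among the listed non-coding RNAs, but it was chosen by its means in this same contrast. RefSeq types 23 of the listed entries as non-coding RNA, with 11 higher and 12 lower with IL-22, where 38.7% of the list was higher. The 11 count both H19 and Mir675, which are 1 set of reads. With so few entries this is no result about non-coding RNAs. After H19 and Mir675 the largest change was that of 6530402F18Rik, at the 11.6-fold given above. A430060F13Rik was 6.56-fold higher, at 0.692 ± 0.0448 RPM with IL-22 and 0.105 ± 0.0135 RPM in controls. The lower ones with the largest changes were 1110006O24Rik, at 0.179 ± 0.0555 RPM with IL-22 and 0.667 ± 0.0329 RPM in controls in the authors' deposited table, and 2410124H12Rik, at 0.240 ± 0.0061 RPM with IL-22 and 0.808 ± 0.0950 RPM in controls. These are 3.73-fold and 3.36-fold lower. The authors' deposited table gives a ratio of 3.32 for D730005E14Rik and of 2.91 for 4732490B19Rik. Mir147, named after its values were seen because it is the other microRNA gene in the list, was 2.90-fold higher, at 22.1 ± 2.48 RPM with IL-22 and 7.63 ± 2.14 RPM in controls in the authors' deposited table. As with Mir675, these are reads of polyadenylated RNA, and mature miR-147 was not measured. Which longer transcript they come from was not examined.

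Genes of the IL-22 pathway and cell type markers were counted in the same way. Of 20 genes of the IL-22 receptor and STAT3 pathway, 8 were listed and 8 were higher, where 2.95% of protein-coding genes were listed and 38.7% of the list was higher. This group of 20 genes was chosen with these results known. The receptor genes Il22ra1 and Il10rb were not listed. Of 20 intestinal epithelial markers, 4 were listed and 4 were lower, where 61.3% of the list was lower, among them Sis, the sucrase-isomaltase gene, at 2494 ± 188.0 RPM with IL-22 and 5581 ± 374 RPM in controls in the authors' deposited table. None of 18 mesenchymal, 18 haematopoietic and 10 endothelial markers was listed, and their levels were not analysed here. In such bulk libraries, more cells that express H19 and more H19 per cell cannot be told apart.

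Most of the H19 sequence occurs in no other annotated gene. Of the 2563 31-base words of the annotated H19 transcripts, 96.8% are found in no other gene. The remaining 81 words all belong to 2 small predicted RNA genes that overlap H19 on the opposite strand. No source used here says whether counting was by strand, and reads of these overlapping genes therefore cannot be told apart from those of H19. The annotation terms that the deposited table attaches to H19 include negative regulation of cell proliferation, polysome and ribonucleoprotein complex.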

How the data were processed

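RNA-seq was made from 6 libraries, 1 per enteroid well, from polyadenylated RNA with 15 PCR cycles and single reads, per the labels' protocols. Per the submitters' processing notes, BWA 0.5.9 and Picard 1.58 were used. Build, annotation and counting method are not given in the sources, and no coordinates are printed. The data are the authors' deposited table of group means and SEMs in RPM, a unit inferred from the values, in which a library with no read carried the value of 1 read. The deposited ratio (fold) divides the mean of IL-22 wells by that of control wells. The deposited p-values, which chose the list, were recomputed from means and SEMs to within 1.07e-06 and are not used as tests.

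Library depths were fitted to entries with few reads. Both IL-22 values of a gene equal its mean plus and minus its SEM, and came out within 0.01 of whole reads in 593 of 593 genes with under 2000 mean reads. For controls, all sets of 4 whole read numbers with the deposited sum were tried, and a set was kept if mean and SEM matched within 1.5e-06 RPM. A single set matched in 105 of 115 entries with at most 100 summed reads, H19 included. In the other 10, a library with 0 reads and one with 1 read carry the same value. The method was tested on simulated data. In the 6 libraries, 3 reads correspond to 0.082 to 0.132 RPM.

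Entrez identifiers of 679 of 690 entries matched RefSeq genes of GRCm38.p6. Named genes were H19 and Mir675, up to 8 listed members of each of 11 gene lists, the 8 non-coding entries with the largest change, and the 5 genes nearest H19 with predicted gene models (Gm and LOC symbols) left out. The members and lists were chosen with earlier results of these data known. Python 3.11.15 with scipy 1.17.1 was used.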

Additional observations from a re-analysis of the deposited data

How the results depend on the processing

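The settings tried bear on the size of the ratio of H19, as none of them could turn its direction. Both IL-22 libraries lay above all control libraries, and the same value was added to both means. The ratio of H19, 22.2, became 3.88 after adding 1 RPM to each mean and 1.65 after adding 5 RPM, because its control mean lies far below the added value. Leaving out each library in turn gave 17.4 to 45.5, the highest without the shallowest control library, whose 9 reads dominate the control mean. Summed reads over summed depth gave 26.6 and raw reads without depth scaling 27.25. The geometric means (35.7) and the medians (34.4) were chosen after seeing the data. Its rank among higher genes, 18, became 38 with 1 RPM added, 140 with 5 RPM added, 11 among genes with at least 100 mean reads in the higher group, where fewer genes are ranked, and 20 with raw reads. The 267 higher genes became 91 at 4-fold, when higher genes made up 48.9% of those left against 38.7% of the list, 178 with at least 100 mean reads and 266 with identical entries counted once. No paired analysis was possible because only group means were deposited, the recovered libraries carry no mouse or well, and no test was made. With 16 control reads in all, depth limits the control level of H19 and every ratio to it.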
